A study of Homo sapiens with 8 samples.

Results

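The genes described here carry or support antigen presentation by HLA molecules: the class I heavy chains HLA-B, HLA-C and HLA-E, their light chain B2M, the class II chains HLA-DRA, HLA-DRB1 and HLA-DPA1, the class II invariant chain CD74 and the class II transactivator CIITA. These 9 genes were taken by symbol from 15372 genes with a read, and each is represented by its most covered 3′ segment on a reference chromosome. RNA turnover was measured by SLAM-seq in THP-1, a human cell line from acute monocytic leukaemia. In SLAM-seq, 4-thiouridine (4sU) enters new RNA and is read after alkylation as T-to-C changes. Reads with such changes (labelled reads) are taken to come from RNA made while 4sU was present. Cells of 7 conditions received 30 uM 4sU for 12 h, with fresh medium every 3 h, and were then washed and kept in medium with 3 mM uridine for 0 h, 20 min, 40 min, 1 h, 2 h, 8 h or 12 h. A further condition never received 4sU, and the labels do not say whether those cells had the same medium changes and washes. Each of the 8 conditions is 1 library of the 1 cell line with no genotype change, so no test between 2 conditions was possible. All libraries were 3′-end libraries (QuantSeq 3′ FWD).

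Class I molecules are a heavy chain paired with beta-2-microglobulin. They show peptides from inside the cell to CD8+ T cells, and HLA-E mainly presents leader peptides of other class I chains to receptors of natural killer cells. Class II molecules are alpha-beta pairs that show peptides taken up from outside to CD4+ T cells. CD74 holds the class II pair together until it reaches the endosome, and CIITA is the co-activator through which class II genes and CD74 are switched on.

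Gene reads summed to 2916038 without 4sU and to between 8301032 (12 h) and 11224000 (8 h) in the chase libraries. All 12 monocytic markers had a chase median of at least 1 CPM (counts-per-million of the gene reads in a library). The library without 4sU stood apart in them, with a summed level of 874 CPM against 2707 to 3183 CPM in the chase libraries. Of 6 B-lymphoid markers 2 reached a chase median of 1 CPM, and their summed level was 13.7 CPM without 4sU against 3.12 to 5.66 CPM. Of 6 dendritic markers 2 reached it (0.343 CPM against 6.57 to 15.3 CPM in sum), and of 6 T and NK markers 1 (0.686 CPM against 1.57 to 3.25 CPM). No erythroid or epithelial marker reached it. CD3E, CD2, CLEC4C and HBB had no read in any library.

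Promoters of the members are shown because class I and class II genes share a control element upstream of their start sites whose last part, the Y box, holds the CCAAT-box core and is bound by NF-Y. RefSeq promoter windows on GRCh38.p14 were at hand for 6 of the 9 genes. Below are the 100 bases before the start site, on the strand of the gene, with ATTGG or its reverse complement CCAAT in capitals.
HLA-DRB1 (chr6:32589849-32589948, minus strand): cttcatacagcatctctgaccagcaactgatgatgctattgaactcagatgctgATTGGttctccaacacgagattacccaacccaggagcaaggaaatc
CD74 (chr5:150412911-150413010, minus strand): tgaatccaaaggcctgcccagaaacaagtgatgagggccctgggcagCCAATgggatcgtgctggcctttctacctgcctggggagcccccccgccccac
B2M (chr15:44711417-44711516, plus strand): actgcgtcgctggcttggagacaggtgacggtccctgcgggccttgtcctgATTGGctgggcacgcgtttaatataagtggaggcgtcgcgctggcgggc
HLA-B (chr6:31357180-31357279, minus strand): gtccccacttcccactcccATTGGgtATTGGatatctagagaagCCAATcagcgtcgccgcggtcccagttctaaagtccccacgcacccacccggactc
HLA-C (chr6:31272093-31272192, minus strand): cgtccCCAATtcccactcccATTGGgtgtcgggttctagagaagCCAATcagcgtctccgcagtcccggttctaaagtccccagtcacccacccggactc
The match nearest to the start site began 46 bases before it in HLA-DRB1, 49 in B2M, 53 in CD74 and 56 in both HLA-B and HLA-C. Searched on both strands in windows of 300 bases, ATTGG occurred in 34.6% of 35116 RefSeq promoters, so a match is common. The 2 windows listed for HLA-DPA1 held none.

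Class I messages were the most abundant of the set and class II messages spanned 3 tiers. The level of B2M was 3541 to 3836 CPM over the 7 chase libraries, with a median of 3721. HLA-B followed with 1700 to 2066 CPM (median 1969) and HLA-C with 507 to 546 CPM (median 517). HLA-E (219 to 288 CPM, median 274) and HLA-DRB1 (238 to 269 CPM, median 262) overlapped in their levels. CD74 lay at 162 to 183 CPM (median 173). HLA-DRA, the partner chain of HLA-DRB1 in the DR molecule, was far lower at 5.22 to 8.55 CPM (median 7.34). HLA-DPA1 had 0.482 to 1.36 CPM and CIITA 0.113 to 0.964 CPM, from 60 and 29 chase reads, and their ranges overlapped. These values were not divided by transcript length, since a 3′-end library takes its reads from the end of a transcript whatever its length. The plot of levels by library shows these tiers.

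**Figure D1:**
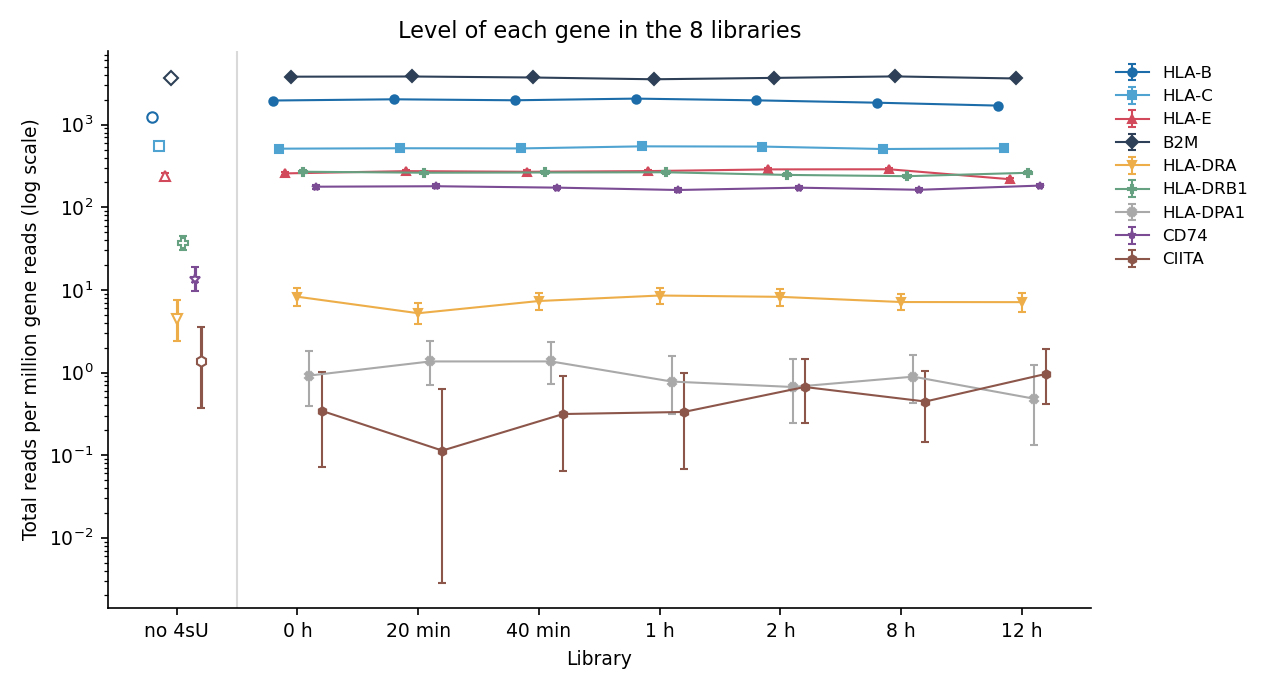
Total level in CPM (log axis) of the 9 genes in each of the 8 libraries, with exact Poisson 95% intervals for counting error and points shifted sideways for legibility. Open symbols are the library without 4sU, where HLA-DRB1 (36.7 CPM) and CD74 (13.7 CPM) lay below all chase libraries and HLA-DPA1 had no read.

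HLA-DRB1 and CD74 were far lower in cells that never received 4sU than at any time after the pulse. CD74 had 13.7 CPM without 4sU (95% exact Poisson interval 9.80 to 18.7), and 177, 180, 173, 162, 173, 163 and 183 CPM in the chase libraries in order of time from 0 to 12 h. The 7 chase values were close to each other and all lay far above the value without 4sU. At 0 h the level was 12.9-fold that without 4sU (counting interval 9.45 to 18.2), and 177 of 10849 genes with at least 20 reads over both libraries had a ratio as high. HLA-DRB1 had 36.7 CPM without 4sU (30.1 to 44.3), and 269, 262, 264, 265, 246, 238 and 261 CPM in the same order. That is a ratio of 7.33 at 0 h (6.04 to 8.99), reached or passed by 331 genes. Neither gene returned towards the lower value over the chase, with ratios at 12 h of 13.3 for CD74 and 7.12 for HLA-DRB1.

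The other members were closer to the diagonal in the comparison of 0 h with no 4sU. HLA-B had 1253 CPM without 4sU and 1959 at 0 h, a ratio of 1.56 (1.51 to 1.62). The ratio was 0.927 for HLA-C (0.875 to 0.982), 1.07 for HLA-E (0.982 to 1.17), 1.03 for B2M (1.00 to 1.05) and 1.85 for HLA-DRA (1.02 to 3.65, from 13 reads without 4sU). So 2 of 7 members with enough reads were at least 2-fold higher at 0 h, beside 20.8% of all genes compared, and none was 2-fold lower, beside 18.1%. The median ratio of all genes was 1.00, and the middle 80% lay between 0.376 and 3.19. HLA-DPA1 had no read without 4sU (a floor of 3 reads is 1.03 CPM) and 8 reads (0.918 CPM) at 0 h, so no difference was detectable at this depth. CIITA had 4 reads without 4sU and 3 at 0 h, so a change of the class II regulator could not be measured. The library without 4sU also differed in the markers given above. The summed monocytic markers were 874 CPM without 4sU against at least 2707 CPM in the chase, and the summed B-lymphoid markers 13.7 CPM against at most 5.66 CPM. Single markers went against their sum at 0 h: monocytic MPO (2.40 CPM without 4sU, 2.18 CPM at 0 h) and B-lymphoid CD79B (0.686 and 0.918 CPM). Any part of the marker differences in the class II difference was not tested. In bulk RNA, fewer cells expressing a gene and less RNA per cell cannot be told apart.

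**Figure D2:**
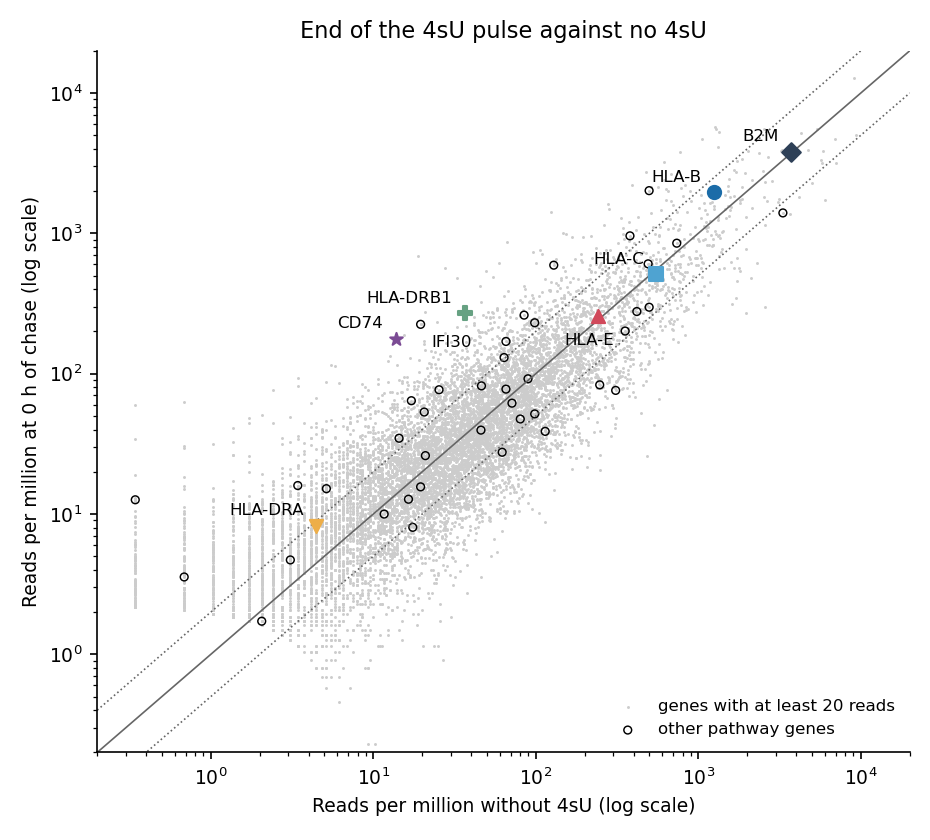
CPM at 0 h of chase against those without 4sU (log axes), 1 library each, for genes with at least 20 reads over both. Coloured symbols are the members with enough reads, open circles the other genes of the pathway lists, the solid line marks equal levels and the dotted lines 2-fold differences. CD74 (12.9-fold) and HLA-DRB1 (7.33-fold) lie well above the line, and B2M, HLA-C and HLA-E lie near it.

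Little of the CD74 RNA at the end of the pulse was read as labelled. At 0 h, 145 of 1545 CD74 reads were labelled, or 9.39% (95% exact Clopper-Pearson interval 7.98 to 10.9). Taken over 0 to 40 min its share was 10.5%, and 3.66% of the 9402 genes tested for decay had a lower one, the median being 44.0%. In absolute terms CD74 had 16.6 CPM of labelled reads at 0 h, while its level at 0 h exceeded that without 4sU by 164 CPM. For HLA-DRB1 these values were 92.3 CPM of labelled reads and a difference of 232 CPM. For a gene whose reads carry no label without 4sU, a labelled share is a lower estimate of new RNA. CD74 had 0 labelled of 40 reads there, with an exact upper 95% limit of 8.81%. Its share of 9.39% at 0 h lay just above that limit, so an absent background was not shown. A read of new RNA with too few changes counts as unlabelled, and how many changes were required could not be read from the labels. For HLA-DRB1, 28.0% of reads counted as labelled without 4sU, so its labelled reads are not such an estimate.

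The labelled share of HLA-DRB1 could not be told from its value without 4sU. HLA-DRB1 had 30 labelled reads of 107 without 4sU, or 28.0% (95% exact interval 19.8 to 37.5). Its chase shares, in order of time from 0 to 12 h, were 34.3, 33.0, 33.7, 33.7, 35.0, 33.9 and 29.4%, all inside that interval. Of 6713 genes with at least 50 reads without 4sU, 3 (0.0447%) had more than 5% labelled reads there. The highest was HLA-DRB1. HLA-DQB1, another class II beta chain, was next with 4 of 61 reads (6.56%), and ARHGEF3, which is outside the HLA region, had 4 of 69 (5.80%). HLA-DQB1 and ARHGEF3 are named after their values were seen. The other members had no labelled read without 4sU. For a count of 0 the floor was set at 3 reads and is not an exact limit. As a share it is 0.0821% for HLA-B, 0.0277% for B2M, 0.186% for HLA-C, 0.428% for HLA-E and 7.5% for CD74 (40 reads). For HLA-DRA (13 reads) it is 23.1%, above the 16.7% labelled at 0 h, and for CIITA (4 reads) it is 75%. HLA-DPA1 had no read of any kind without 4sU. For HLA-DRA, CIITA and HLA-DPA1 a background of labelled reads could thus not be judged. Whether variant sites of the cell line were left out when changes were counted could not be read from the labels. Segments of alternative HLA haplotypes, 89 of them named for a member, had no reads in any library. Of the 50-base words in the last 250 bases of the HLA-DRB1 transcript, 6 of 201 also occurred in HLA-DRB5, and none of those of HLA-B, HLA-C, HLA-E, B2M, HLA-DRA, HLA-DPA1 or CD74 occurred in another gene.

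How fast the label left the RNA was tested in 7 of the 9 genes, against hours of chase in the 7 chase libraries. The labelled share fell in 4 of them, all class I (HLA-B, HLA-C, HLA-E and B2M), and passed in neither direction for HLA-DRA, HLA-DRB1 and CD74 (edgeR quasi-likelihood, Benjamini-Hochberg adjusted p under 0.05 over all genes). Beside this, the share fell in 95.3% of the 9402 genes tested and rose in 0.0213%. The median change of the 7 members was -0.44 on the log2 scale over 12 h, and that of all genes -4.66. HLA-DPA1 and CIITA, with 8 and 1 labelled reads in the chase, were too low to be tested. With 7 libraries and a straight line, 5 degrees of freedom were left for each gene. The p-values rest on how far single libraries strayed from that line, where edgeR draws the scatter of each gene towards that of all genes.

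HLA-E lost its label while its fellow class I chains kept most of theirs. In order of chase time, HLA-E had 26.0, 24.8, 24.8, 23.7, 23.6, 12.4 and, at 12 h, 2.92% labelled reads (53 of 1814 reads, 95% exact interval 2.20 to 3.80). The first 5 values were close together and the last lay far below all others. The change was -2.57 on the log2 scale over 12 h (adjusted p = 7.21e-08, edgeR, range 9.83e-15 to 0.312 over 12 alternatives, the highest over 0 to 2 h alone), and the half-life of the labelled share was 5.64 ± 0.90 h (SE, 95% interval 4.11 to 7.72). Among 8831 genes with a resolved half-life, 86.8% had a shorter one, the median being 2.72 h. The decline was uneven. Between 2 and 8 h the share dropped at 0.16 log2 per hour, where the median of 3183 genes with at least 50 labelled reads at 8 h dropped at 0.23. Between 8 and 12 h it dropped at 0.52 log2 per hour, where that median was 0.40. HLA-E kept 49.1% of its labelled share of the first 40 min at 8 h and 11.6% at 12 h, with medians over all genes of 14.1% and 3.14%. Scatter about the curve was 12.7 times the binomial variance, and the half-life was 7.58 h without the 12 h library, 4.24 h without the 8 h library and 15.5 h over 0 to 2 h alone.

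HLA-B had labelled shares of 25, 25.1, 25.7, 26.2, 24.5, 20.8 and 19.1% in the same order. Up to 2 h its counting intervals overlapped those of HLA-E except at 1 h (25.6 to 26.9 against 22 to 25.4), and at 12 h it was the higher by far. The fall of -0.44 (log2 over 12 h) passed (adjusted p = 0.00263, edgeR, range 5.38e-07 to 0.804 over 12 alternatives, the highest over 0 to 2 h alone). B2M went from 14% at 0 h through 15.4% at 1 h to 11.7% at 12 h, a change of -0.32 (adjusted p = 0.0196, edgeR), and gave 0.0533 over 1 to 12 h. HLA-C went from 15.1% to 11.6%, a change of -0.46 that passed narrowly (adjusted p = 0.0323, edgeR). Its call was lost without the 20 min, the 40 min, the 1 h or the 2 h library (adjusted p = 0.0538, 0.0819, 0.0577 and 0.0501) and over 1 to 12 h (0.153). At 12 h HLA-B kept 75.7% of its early labelled share, HLA-C 75.7% and B2M 82.7%, more than 97.3%, 97.3% and 98.0% of all genes tested.

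The fitted half-lives of these 3 genes lay past the 24 h up to which a value counted as resolved: 25.1 ± 4.54 h for HLA-C, 27.3 ± 2.96 h for HLA-B and 38.6 ± 8.34 h for B2M (SE). They differed from each other by less than their errors allow to tell: HLA-B over HLA-C was a ratio of 1.09 (95% interval 0.720 to 1.65), B2M over HLA-B 1.41 (0.880 to 2.27) and B2M over HLA-C 1.54 (0.885 to 2.67). Against HLA-E the ratio was 4.84 for HLA-B (3.31 to 7.08), 4.45 for HLA-C (2.77 to 7.15) and 6.84 for B2M (4.04 to 11.6), and these intervals exclude 1. The intervals treat the errors of 2 genes as independent, although both come from the same libraries. Scaled by library size and not by the total of the same gene, labelled reads gave half-lives of 18.1 h for HLA-B, 23.3 h for HLA-C, 37.6 h for B2M and 5.43 h for HLA-E.

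**Figure D3:**
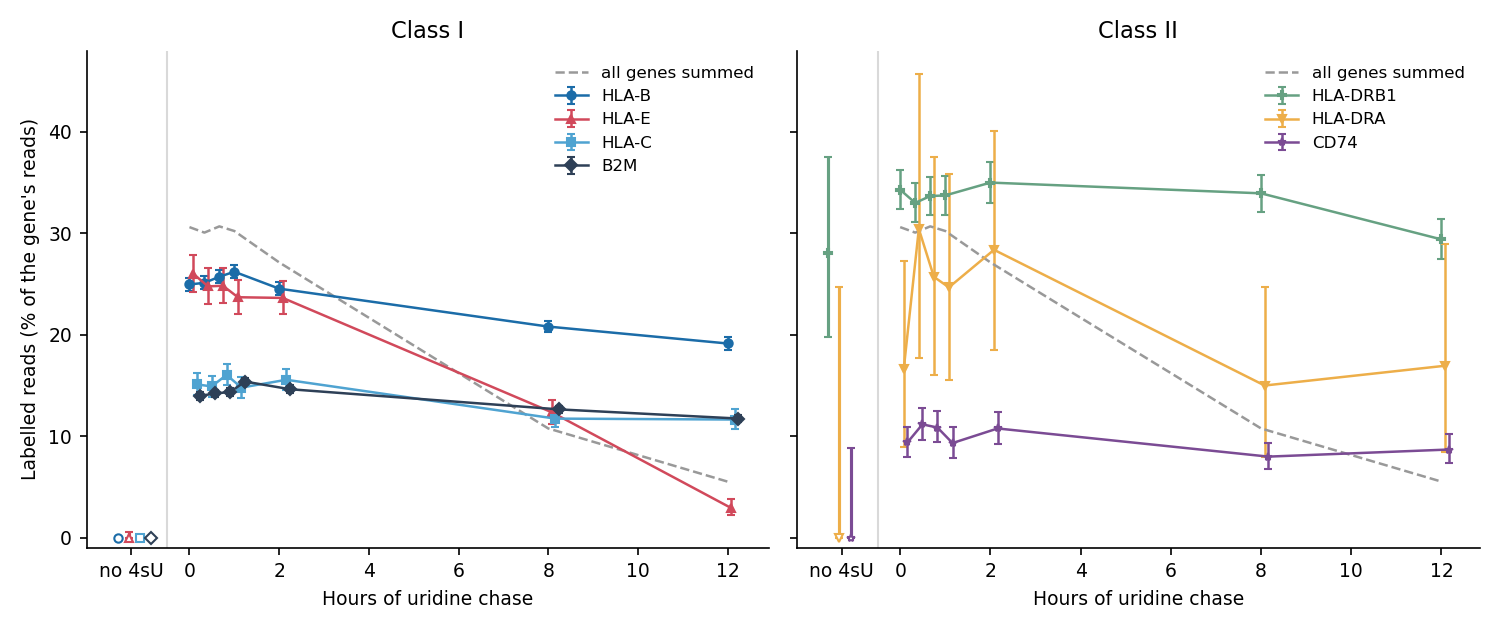
Labelled reads as a percent of the gene's reads against hours of chase for the class I genes (left) and the class II genes with enough reads (right), with exact 95% intervals, 1 library per point and small sideways shifts. The dashed grey line is the share over all genes and open symbols are the library without 4sU. HLA-E falls to 2.92% at 12 h while HLA-B stays at 19.1%, and HLA-DRB1 without 4sU (28.0%) is level with its chase values.

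For class II genes no decline was detectable. CD74 had labelled shares of 9.39, 11.2, 10.9, 9.33, 10.8, 7.99 and 8.69% from 0 to 12 h, a change of -0.34 (adjusted p = 0.201, edgeR, range 0.106 to 0.777 over 13 alternatives). The counting interval at 8 h (6.79 to 9.33) lay just below those at 20 min (9.66 to 12.8) and 40 min (9.39 to 12.5) and overlapped the others. HLA-DRA, with 46 to 80 reads per chase library, ranged from 15.0% at 8 h to 30.4% at 20 min with a median of 24.7%, and its change of -0.70 did not pass (adjusted p = 0.162, edgeR). HLA-DRB1 changed by -0.15 (adjusted p = 0.437, edgeR). Relative to library size in place of its own total it fell by 0.37 (0.0333). Its share holds the reads that count as labelled without 4sU, so this change is not a measure of decay. At 12 h CD74 kept 82.9% of its early labelled share, HLA-DRB1 87.3% and HLA-DRA 72.4%. Without 4sU the exact upper 95% limit of the labelled share was 8.81% for CD74 (40 reads) and 24.7% for HLA-DRA (13 reads). The 12 h shares of CD74 (8.69%) and HLA-DRA (16.9%) lay below these limits. How much of the share they kept was label from the pulse could therefore not be resolved. HLA-DPA1 had 8 labelled of 60 chase reads and CIITA 1 of 29.

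Total levels moved little over the chase. They fell in 3 of the 7 genes tested with TMM scaling and in 5 of 7 with DESeq2's size factors within edgeR, beside 23.9% of 10643 genes that fell and 27.4% that rose in edgeR with TMM. HLA-B fell by 0.38 on the log2 scale over 12 h (adjusted p = 0.000373, edgeR), B2M by 0.17 (0.0329) and HLA-E by 0.34 (0.0115). The fall of HLA-E rested on the last library: its level was 288 CPM at 8 h (exact interval 278 to 298) and 219 CPM at 12 h (209 to 229), and without the 12 h library the change was -0.07 (adjusted p = 0.616, edgeR). The call of B2M was lost without the 0 h, 20 min or 40 min library (adjusted p = 0.0829, 0.0966 and 0.0786) and over 1 to 12 h (0.585). HLA-C (-0.19) and HLA-DRB1 (-0.22) missed the threshold (adjusted p = 0.0504 and 0.0596, edgeR) and passed with DESeq2's size factors (0.0341 and 0.0464). HLA-DRB1 also passed without the 2 h library (0.0425), and without the 12 h library HLA-C (-0.30, adjusted p = 0.0251), HLA-DRB1 (-0.49, 0.00195) and CD74 (-0.40, 0.0146) passed too. CD74 changed by -0.13 with all 7 libraries (adjusted p = 0.273, edgeR) and HLA-DRA by -0.22 (0.499). Without the 8 h library the change was -0.040 for CD74 and -0.13 for HLA-DRB1, and without the 20 min library it was -0.38 for HLA-DRA, none of which passed.

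The 3′ ends of the messages are described because more uridines give a read more chances of a change, and that AUUUA is the core of AU-rich elements of short-lived mRNAs. In GENCODE 29 transcripts with the measured identifier, T made up 25.2% of the last 250 bases of HLA-E, the lowest share among the members, 32.8% in HLA-B, 31.2% in B2M, 30.4% in HLA-C and HLA-DRB1, 27.2% in CD74 and 38.8% in HLA-DRA, beside a median of 30.8% over 15367 genes. Only HLA-E and HLA-DRB1 had the very transcript version that the counts name, so the ends of the others may differ from those counted, and that of CIITA is not used here. ATTTA was searched on the transcript strand over the whole 3′ untranslated region. HLA-E held it at 2 places, bases 590 and 683 of 1459, shown with their flanks and the motif in capitals.
HLA-E at base 590: ctggatctcaATTTAatttttcata
HLA-E at base 683: tctctagcaaATTTAgcctattcct
B2M held 6 such places in 1285 bases, for example the last one, 34 bases from the end.
B2M at base 1252: caaataacagATTTAaaattttcaa
HLA-B, HLA-C, HLA-DRA, HLA-DRB1 and HLA-DPA1 held none and CD74 held 1. Within the last 250 bases, B2M and CD74 held 1 each and HLA-E none, where 40.9% of all 15367 transcript ends held at least 1. Any relation of this motif to decay was not tested.

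Other genes of the pathway included many that lost label faster than any member. Of 46 listed genes with a read, 38 were tested for label, and it fell in 34 and rose in 0, beside 95.3% of all genes that fell, a share so high that the counts by group below set no group apart. Transcription regulators of the HLA genes fell in 12 of 12 with a median half-life of 2.49 h, near the 2.72 h of all resolved genes. IRF1, an interferon-induced activator of class I genes, had the shortest (1.33 ± 0.22 h, SE), and IRF8, a myeloid factor, had 1.82 ± 0.29 h. IRF8 was also the gene of these lists whose total rose most over the chase, by 1.00 on the log2 scale (adjusted p = 1.54e-05, edgeR). Class I relatives outside the members fell in 5 of 5, and 4 had resolved half-lives with a median of 2.25 h, among them CD1D, which presents lipids (1.71 ± 0.38 h).

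Genes that supply and load class I peptides had, by their median, longer half-lives than these. Their label fell in 12 of 14, and 9.13 h was the median half-life of the 11 resolved ones. The longest resolved half-lives of all the lists belonged here, to the chaperone calnexin, CANX (22 ± 5.03 h), the proteasome activator subunit PSME1 (21.3 ± 5.00 h) and the immunoproteasome subunit PSMB10 (17.1 ± 5.49 h). Their totals fell in 6 and rose in 3 of 14, beside 23.9% and 27.4% of all genes. Class II processing genes fell in label in 5 of 5 with a median of 6.38 h. Of the other class II chains and loading factors, 2 could be tested for label, HLA-DQB1 and HLA-DRB5, and neither passed (adjusted p = 0.402 and 0.922, edgeR). In the comparison of 0 h with no 4sU, the highest ratio in these lists was that of HLA-DRB5 (0.343 CPM to 12.6 CPM, 36.8-fold). It rested on 1 read without 4sU. With more than 3 reads there, the highest was that of IFI30, a lysosomal thiol reductase that opens antigens for class II loading. IFI30 went from 19.5 CPM to 225 CPM (11.5-fold, 57 reads without 4sU). Both genes are named after their values were seen. A ratio of at least 2 was met by 3 of 5 class II processing genes and 6 of 14 class I loading genes. It was met by 2 of 12 transcription regulators, 3 of 5 class I relatives and 2 of 4 other class II chains and loading factors. Of all genes, 20.8% met it. The plot of half-lives sets these groups beside the class I members.

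**Figure D4:**
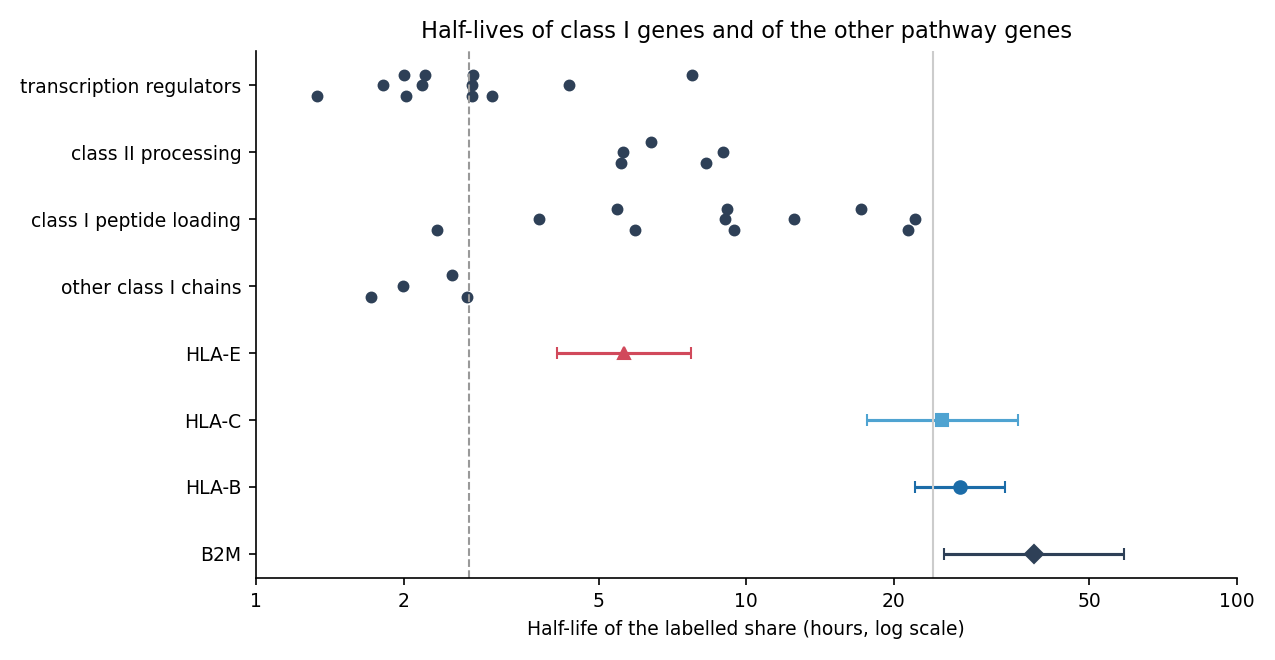
Half-life of the labelled share in hours (log axis) for the 4 members whose label fell, with 95% intervals, and for the other pathway genes with a resolved half-life, 1 dot each. The dashed line is the median of all resolved genes (2.72 h) and the grey line the 24 h limit. HLA-E (5.64 h) lies above that median and well below HLA-B, HLA-C and B2M.

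The genes most like a member in how the labelled share ran were found from the root mean square difference of log2(labelled percent + 0.5) over the 7 chase libraries, among 6314 genes averaging at least 200 reads. For HLA-B they were PSMB6, a proteasome subunit (0.083), CD99, a surface glycoprotein (0.091), and HNRNPA1, an RNA-binding protein (0.10). For HLA-DRA they were GNG5P2 (0.21), WDR83OS (0.26) and GGH (0.27), a looser likeness on far fewer reads. Among the members, HLA-C and B2M were alike to 0.094, while HLA-B and HLA-C differed by 0.72, mainly in the level of the share. CIITA had too few labelled reads for such a comparison.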

How the data were processed

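The authors deposited raw counts of all reads and of converted reads per 3′ UTR segment, per the file headers and values. Builds hg19 and dm3 and the tools Trim Galore 0.6.5 and bcl2fastq 2.17.1.14 are listed in the submitters' processing notes. Aligner, counter, variant masking and the conversion minimum: not given in the sources used here. Both tables held 64545 segments. Transcripts were named with GENCODE 29 (84.9% matched), segments on alternative contigs (3056) were left out, the most covered segment stood for a gene, and 93 genes with counts equal to another's were dropped.

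On hg19 the measured segments start at 31321649 (HLA-B, minus), 31236526 (HLA-C, minus), 30460526 (HLA-E, plus), 32412429 (HLA-DRA, plus), 32546546 (HLA-DRB1, minus) and 33032346 (HLA-DPA1, minus) of chromosome 6, 45009805 of chromosome 15 (B2M, plus), 149781200 of chromosome 5 (CD74, minus) and 11017735 of chromosome 16 (CIITA, plus), as their names give them.

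Labelled counts were fitted against hours with edgeR 4.0.16 (R 4.3.3, quasi-likelihood), offset by the gene's own total, for genes with a mean total of at least 50 and 20 labelled reads. Totals were fitted with TMM factors at a mean count of at least 20. Calls used an adjusted p under 0.05. Each half-life was estimated by binomial maximum likelihood from background plus an exponential, with the background taken from the library without 4sU and shrunk with 100 prior reads. Values are termed resolved where the decline was called, the fitted 0 h excess reached 10 reads, the log rate had an SE up to 0.5, and the estimate was within 0.25 to 24 h. SEs were widened where scatter exceeded binomial error. The tests were checked on simulated data, where 83.0% of genes given a label change of -1 (log2 over 12 h) were called. Changes between 0 and -1, where most of the tested members lay, were not simulated. The check thus does not show whether declines of that size would be found. The labels name no molecular identifiers, and intervals and floors (3 reads) cover counting error only. The members and lists were chosen with earlier results of these data known. From the lists, the 3 shortest and 3 longest resolved half-lives and totals called with a log2 change of at least 1 are named. DESeq2 1.42.0 served as an alternative. Some results are not reported here.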

Additional observations from a re-analysis of the deposited data

How the results depend on the processing

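Over 0 to 2 h alone no member passed in either fit, and the counts of all genes were 2998 for falling label (8962 with all chase libraries), 112 for falling totals (2544) and 439 for rising totals (2919). Changes then scaled to 12 h reversed, with no call, for the label of HLA-C (0.21), B2M (0.46), HLA-DRA (2.66), HLA-DRB1 (0.30) and CD74 (0.43) and for the totals of HLA-C (0.34), HLA-E (0.59) and HLA-DRA (1.28), and the half-life of HLA-E was 15.5 h. Over 1 to 12 h the label fell in 2 members, and totals rose in 1901 genes. Leaving out each chase library, the label fell in 3 to 4 members and totals in 2 to 5 (5 without the 12 h library), and the label of HLA-DRB1 changed by -0.21 to 0.016. Totals fell in 5 members with DESeq2's size factors and also with DESeq2. With members on their next most covered segment the label fell in 1 and totals in 0, where HLA-C had no other segment with different counts, and apart from CD74 (11054 reads) the other segments held at most 121 reads. No paired analysis was possible because each condition has 1 library.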
